A study of Saccharomyces cerevisiae with 12 samples.

Results

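Nitrogen catabolite repression is the shutting off of yeast genes for poor nitrogen sources while a good one is at hand, and 5 of its regulators were followed here through nitrogen and carbon starvation. They are GLN3, GAT1, DAL80, GZF3 and URE2, chosen by gene name among the 6256 genes with a probe on the arrays. No measured value entered that rule, but earlier results of these data were known when the choice was made. All 5 were found. GLN3, GZF3 and URE2 have 2 spots each on an array, and GAT1 and DAL80 have 1. Their systematic names are YER040W, YFL021W, YKR034W, YJL110C and YNL229C, in the order given above, so each lies on a different chromosome.

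GLN3 and GAT1 encode zinc finger activators that bind GATA sequences upstream of the genes for uptake and breakdown of poor nitrogen sources. URE2 encodes a cytoplasmic protein, also known as a prion, that binds Gln3 and keeps it out of the nucleus when nitrogen is plentiful, and kinases and phosphatases downstream of Tor act on the same step. DAL80 and GZF3 encode zinc finger repressors that compete for the same GATA sequences, and DAL80 and GAT1 are themselves controlled through GATA sequences, so the factors form a circuit of mutual regulation.

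The cells were FY4, a prototrophic strain of mating type a derived from S288C, grown on filters over minimal medium (yeast nitrogen base) with glucose and ammonium. For nitrogen starvation the filters were moved to medium without ammonium, and for carbon starvation to medium that kept ammonium but had no glucose. Each starvation was sampled 6 times (10, 30 and 60 min, then 120, 240 and 480 min after the move) on 1 array per time point, 12 arrays in all, with poly(A)+ RNA of starved cells in the red channel and that of exponentially growing cells taken before the switch in the green channel. No dyes were swapped, and any dye bias remains in each ratio but cancels between the starvations. All values below are log2 ratios of starved over pre-starvation signal, after each array was scaled to equal red and green totals, unless another quantity is named. A value of 1 is therefore a doubling of a transcript's share of the total signal.

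The labels give no replicate cultures. Each starvation was tested on its 6 time points in place of replicates. Each SE and p-value therefore measures the spread between time points and not between cultures. That spread is 1 value per gene, pooled over the arrays of both starvations. An SE given for 1 starvation therefore also carries the spread in the other. A gene was called at an adjusted p under 0.05 from limma with Benjamini-Hochberg adjustment over all genes tested. The a-specific genes STE2, STE6, BAR1, MFA1 and MFA2 were well above background in the red channel on all 12 arrays. Of the alpha-specific genes, MF(ALPHA)1 was so on 1 of 12 spots in nitrogen starvation and 0 of 12 in carbon starvation and MF(ALPHA)2 on 1 and 2 of 12, but STE3 on 10 of 12 and 6 of 12 and SAG1 on 5 of 6 and 3 of 6.

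Of the 12 arrays, 4 stood apart. Red spots were well above background on 78.4% of 10263 spots for nitrogen starvation at 10 min, and on 58.3%, 67.3% and 42.7% for carbon starvation at 10, 30 and 60 min, against 84.8 to 93.4% on the other 8 arrays. The green channel showed no such gap, at 84.8 to 88.5%. On these 4 arrays the ratios in the scanner output also correlated poorly over 1995 probes with those the study tabulated, at an r of 0.03 for nitrogen at 10 min and 0.62, 0.62 and 0.42 for carbon at 10, 30 and 60 min. On the other 8 arrays r was at least 0.999. Because 3 of the 4 are the whole first hour of carbon starvation, time and array cannot be told apart there. The median gene was not at 0 either: over the fit it stood at 0.18 in nitrogen starvation and -0.37 in carbon starvation. Values relative to the median gene are therefore given where that shift matters.

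DAL80 had the largest mean change of the 5 in each starvation, and it moved in opposite directions in the 2 starvations. In nitrogen starvation its ratio was 1.57, 0.51, 2.94, 2.96, 2.55 and 2.22 at 10 to 480 min. In carbon starvation it was -0.16, -0.50, -1.23, -1.80, -2.31 and -2.12 at the same times. Every nitrogen value lay above every carbon value, with the 30 min array lowest in nitrogen starvation. The 120 min level in nitrogen starvation was 7.77 times that before the switch, and the 240 min level in carbon starvation was 0.20 times. From 60 min on, DAL80 ranked between the 94.1 and 96.3 percentile of all genes on the nitrogen arrays.

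**Figure D1:**
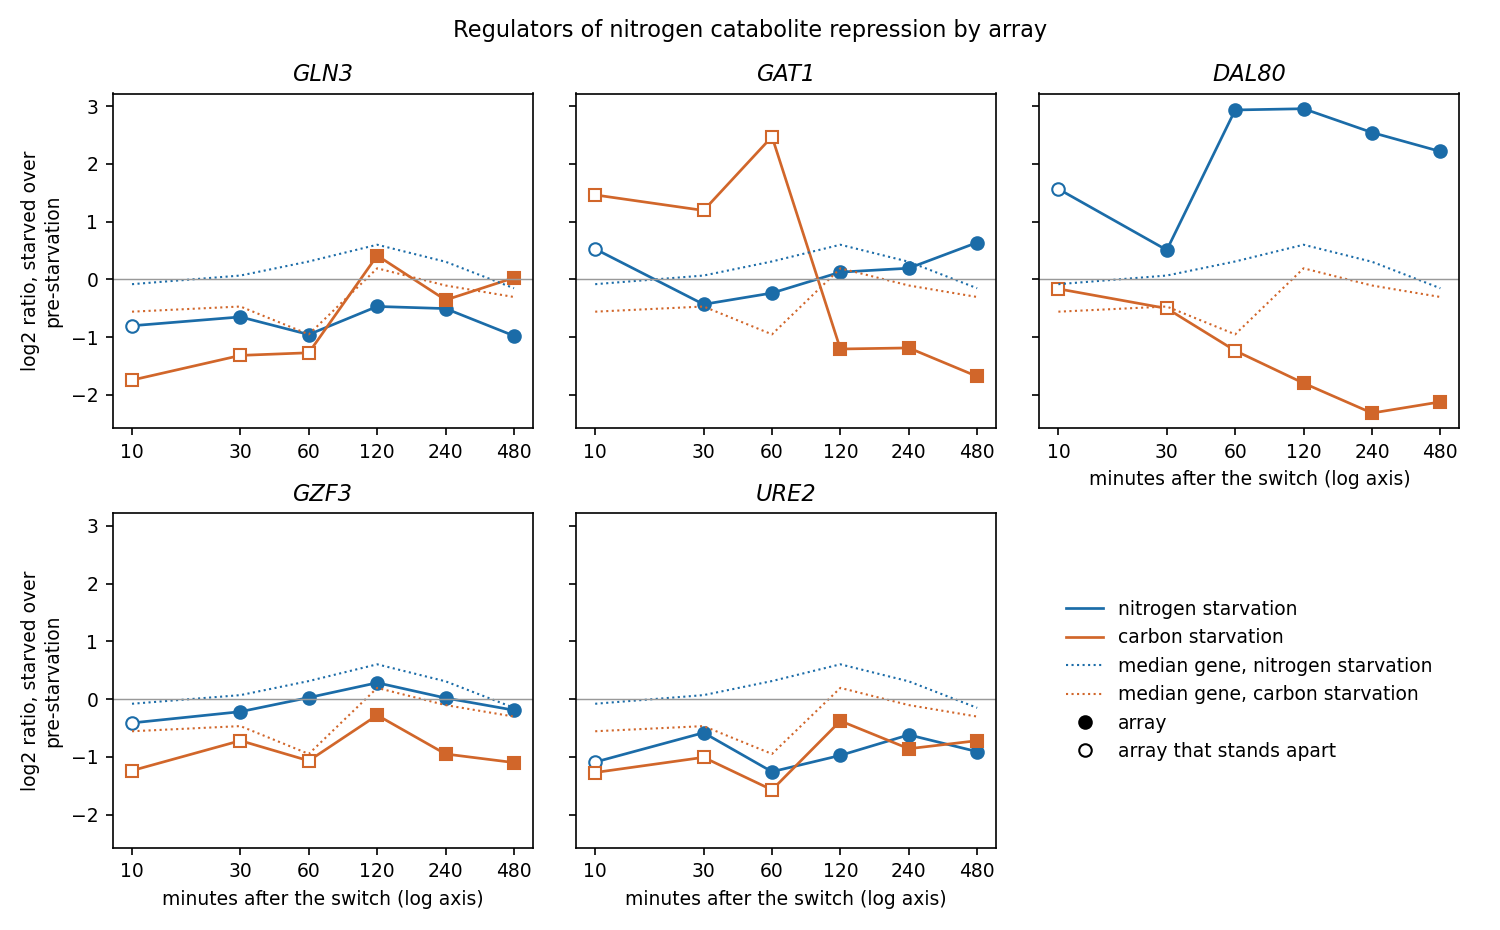
Log2 ratio (starved over pre-starvation, y axis) of the 5 regulators at each time after the switch (minutes, log axis), 1 point per array, in nitrogen starvation (blue circles) and carbon starvation (orange squares). Open symbols are the 4 arrays that stand apart and dotted lines the median gene of each array. DAL80 lies between 0.51 and 2.96 in nitrogen starvation and between -2.31 and -0.16 in carbon starvation, and GAT1 in carbon starvation lies above 1 on the 3 open symbols and below -1 on the 3 filled ones.

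Averaged over the 6 time points, DAL80 was higher by 2.12 ± 0.35 (SE, n = 6, adjusted p = 0.000582) in nitrogen starvation. It was lower in carbon starvation, at -1.35 ± 0.35 (SE, n = 6, adjusted p = 0.00493). The difference, nitrogen minus carbon, was 3.48 ± 0.50 (SE, n = 6 each, adjusted p = 0.00349), which is 11.1-fold. Relative to the median gene of each array the means were 1.95 and -0.99. Without the 4 arrays that stand apart, the difference was 4.31 (adjusted p = 0.000261).

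DAL80 was called in the difference between the starvations over all times, and the other 4 regulators were not. The background was 10.5% of 5578 genes called, and 10.0% called higher in nitrogen. It shifts with the scaling, from 560 genes higher and 28 lower under equal totals to 131 and 39 with no further scaling. With median centring it was 41 higher and 36 lower. GZF3, encoding the other repressor, had a difference of 0.81 ± 0.25 (SE) that missed the threshold (limma adjusted p = 0.0573). With the 6 shared time points as a block the same difference was called (0.81 ± 0.24, SE, limma adjusted p = 0.0471), but it was 0.27 with median centring and -0.35 with normexp background correction and equal totals.

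Under equal totals the differences of GLN3 (-0.02 ± 0.37), GAT1 (-0.04 ± 0.66) and URE2 (0.06 ± 0.27, SE) were smaller than their errors. They moved with the scaling and the arrays. GLN3 was at -0.56 with median centring, at -0.74 on the 8 arrays and at -1.25 with normexp background correction and equal totals, where it was called (limma adjusted p = 0.0091). URE2 was at -0.33 with no further scaling, -0.48 with median centring and -0.58 ± 0.18 (SE) with loess after normexp, and was called under none of these. GAT1 was at 1.42 on the 8 arrays (limma adjusted p = 0.00781). The 8 arrays do not match in time between the starvations, so time and array are both changed in these values.

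**Figure D2:**
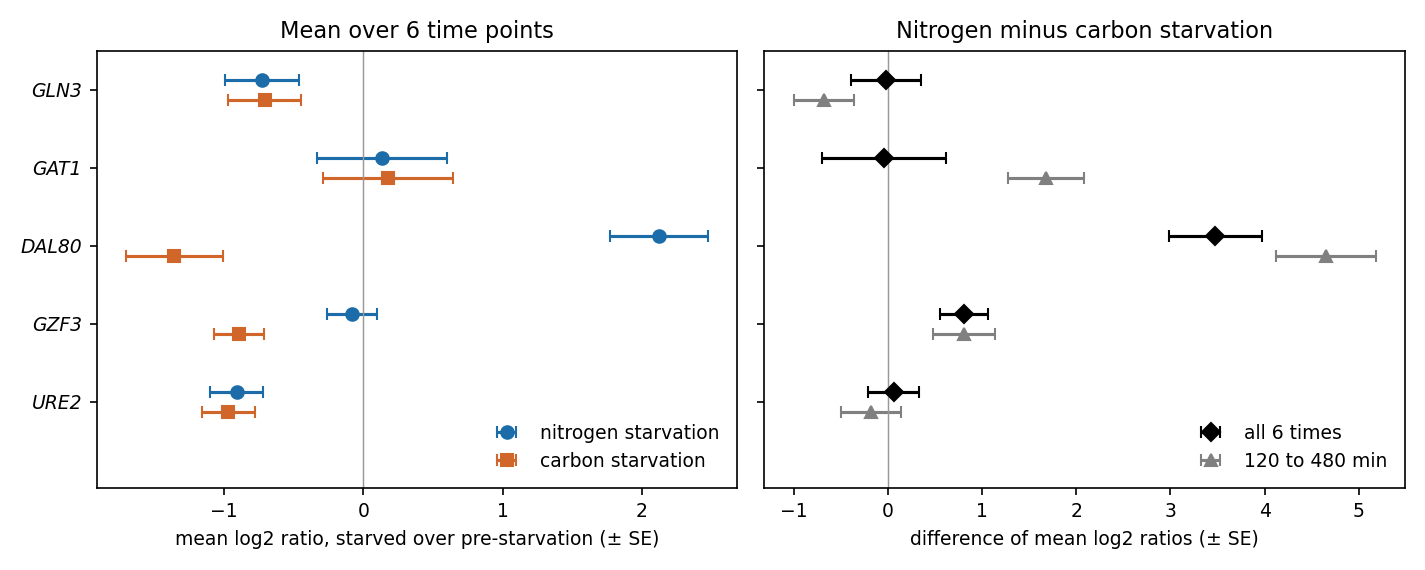
Left, mean log2 ratio (starved over pre-starvation, x axis) of each regulator over the 6 time points in nitrogen starvation (blue circles) and carbon starvation (orange squares). Right, nitrogen minus carbon difference of mean log2 ratios (x axis) over all 6 times (black diamonds) and over 120 to 480 min (grey triangles); bars are SE from limma. DAL80 stands apart on the right at 3.48 over all times and 4.65 over 120 to 480 min, and GAT1 at 1.68 over 120 to 480 min.

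The comparison at 120, 240 and 480 min uses none of the 4 arrays in its means. There DAL80 was 25.1-fold higher in nitrogen starvation, a difference of 4.65 ± 0.53 (SE, n = 3 each, limma adjusted p = 0.000106). Under equal totals GAT1 was the other of 2 regulators called, and both were higher in nitrogen starvation. The GAT1 call was lost under other scalings, as given below. The background was 16.2% of 5505 genes called, and 12.9% called higher in nitrogen.

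GAT1 stayed near its starting level in nitrogen starvation and took both its highest and its lowest values in carbon starvation. Its ratios in nitrogen starvation were 0.53, -0.43, -0.24, 0.13, 0.19 and 0.64 at 10 to 480 min. In carbon starvation they were 1.46, 1.20, 2.47, -1.20, -1.19 and -1.68. The carbon values of the first hour all lay above those of nitrogen starvation, and the later ones all lay below. At 60 min of carbon starvation GAT1 was at 5.56 times its level before the switch, and at 480 min at 0.31 times. The 60 min array is among those that stand apart. Its raw GAT1 signal was 425 units in red and 1020 units in green, so the ratio is above 0 only after the dyes were balanced. The same held at 10 and 30 min, with 348 units in red at each and 1011 and 1054 units in green.

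The means of GAT1 over all 6 time points, 0.14 ± 0.47 in nitrogen starvation and 0.18 ± 0.47 in carbon starvation (SE, n = 6 each), were therefore not different from 0 in the test (limma adjusted p = 0.826 and 0.765). Here too the SE is pooled, with an SD over time points of 0.42 in nitrogen and 1.74 in carbon starvation. The later values in carbon starvation were lower than those of the first hour, with a difference of -3.07 ± 0.40 (SE, n = 3 each, limma adjusted p = 0.000222). This drop coincided with the boundary between the arrays that stand apart and the others, whose part in it was not tested. At 120 to 480 min alone, GAT1 was at 0.32 ± 0.28 in nitrogen starvation and -1.36 ± 0.28 in carbon starvation (SD, n = 3 each). The difference was 1.68 ± 0.40 (SE, limma adjusted p = 0.0127), which is 3.20-fold. That call did not hold under the other scalings, at 1.20 with loess after normexp background correction (adjusted p = 0.079), 1.39 with no further scaling (0.0535) and 1.35 with median centring (0.0774), nor without the carbon array at 480 min (1.52, 0.0572), all by limma.

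GAT1 was also the regulator whose reference signal varied most. Over the 12 arrays its green signal, from the pre-starvation cells and relative to the array's median spot, had an SD of 0.319 (log2), at the 94.2 percentile of 5174 genes. The other regulators had SDs of 0.100 to 0.114, below the median of 0.154 over all genes. The GAT1 green level ranged over 1.00 log2 unit, less than the spread of its ratios in carbon starvation. The part of the reference in the GAT1 ratios was not tested.

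GLN3, encoding the other activator, was below its level before the switch throughout nitrogen starvation. Its ratios were -0.80, -0.65, -0.95, -0.47, -0.50 and -0.98 at 10 to 480 min. In carbon starvation they were -1.74, -1.32 and -1.27 in the first hour and 0.41, -0.36 and 0.03 later. Nitrogen values were all below 0 and kept within a narrow range, whereas the later carbon values lay near 0 and above all nitrogen ones. On the 3 carbon arrays of the first hour the starved signal of GLN3 was well above background on neither spot.

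Over the 6 time points GLN3 was lower in nitrogen starvation, at -0.73 ± 0.26 (SE, n = 6, limma adjusted p = 0.0401). This SE is pooled: the SD over time points was 0.22 in nitrogen and 0.86 in carbon starvation. The call was lost on leaving out any 1 nitrogen array (limma adjusted p of 0.0635 to 0.103), while without the 4 arrays it was -0.71 (0.00525). In carbon starvation the mean was -0.71 ± 0.26 (SE, n = 6, limma adjusted p = 0.0340) under equal totals, but 0.72 with normexp background correction and equal totals and 0.029 without the 4 arrays. The later values in carbon starvation were higher than those of the first hour by 1.47 ± 0.32 (SE, n = 3 each, limma adjusted p = 0.00347), but the difference was -0.91 with normexp background correction and equal totals. The mean normalised red signal of GLN3 was 1.87-fold higher later than in the first hour, when it was not well above background, so neither a size nor a direction is fixed by these values. At 120 to 480 min GLN3 differed between nitrogen and carbon starvation by -0.68 ± 0.32 (SE, n = 3 each), which missed the threshold (limma adjusted p = 0.188) and passed it with loess (-0.65), with no further scaling (-0.97) and with median centring.

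GZF3 stayed near its starting level in nitrogen starvation and was below it in carbon starvation. Its ratios in nitrogen starvation were -0.41, -0.22, 0.03, 0.28, 0.02 and -0.19 at 10 to 480 min. In carbon starvation they were -1.24, -0.72, -1.07, -0.28, -0.95 and -1.10. All carbon values were below 0, and only the carbon array at 120 min overlapped the nitrogen range. The starved signal of GZF3 was well above background on 1 of 2 spots at 10 min and on 0 of 2 at 60 min of carbon starvation.

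The mean of GZF3 was -0.08 ± 0.18 in nitrogen starvation (SE, n = 6, limma adjusted p = 0.724). In carbon starvation it was lower, at -0.89 ± 0.18 (SE, n = 6, limma adjusted p = 0.00097), but 0.28 with normexp background correction and equal totals. Relative to the median gene the means were -0.26 and -0.53. Without the 4 arrays the carbon mean was -0.78 (limma adjusted p = 0.0109). Of the 2 repressor genes, DAL80 alone was called in nitrogen starvation, while both were called lower in carbon starvation under equal totals.

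URE2 was below its starting level throughout both starvations. Its ratios in nitrogen starvation were -1.09, -0.58, -1.26, -0.98, -0.62 and -0.91 at 10 to 480 min. In carbon starvation they were -1.27, -1.01, -1.57, -0.38, -0.86 and -0.72. All 12 values were below 0 and below the median gene of their array, and both spots were well above background in both channels throughout. The range of nitrogen starvation lay within that of carbon starvation.

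URE2 fell in both starvations, with means of -0.91 ± 0.19 in nitrogen (SE, n = 6, limma adjusted p = 0.00244) and -0.97 ± 0.19 in carbon (SE, n = 6, limma adjusted p = 0.000834), to 0.53 and 0.51 times its level before the switch. The difference, nitrogen minus carbon, was 0.06 ± 0.27 (SE, limma adjusted p = 0.920) under equal totals and negative under the other scalings, as given above. Relative to the median gene the means were -1.08 and -0.60. The carbon call was lost with normexp background correction and equal totals (-0.27, limma adjusted p = 0.0771).

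Counting the 5 together, 3 were called in nitrogen starvation, with DAL80 higher and GLN3 and URE2 lower. The background was 41.5% of 5578 genes called, 22.1% higher and 19.4% lower. In carbon starvation 4 were called, all lower, against 56.6% of all genes called, 16.4% higher and 40.2% lower. The carbon background shifts with the scaling, from 914 genes higher and 2242 lower under equal totals to 1611 higher and 1607 lower under median centring. So many genes were called in both starvations that these counts of 5 are no result about the regulators. Without the 4 arrays there were again 3 calls in nitrogen and 4 in carbon starvation. The background there was higher, at 3461 of 5714 genes called in nitrogen and 3814 in carbon starvation. In carbon GAT1 (-1.36, limma adjusted p = 0.000589) took the place of GLN3.

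Change over the course was compared as 120 to 480 min minus 10 to 60 min. In nitrogen starvation 0 of the 5 were called. The background there was 0% called by limma, with 916 of 5505 genes at an unadjusted p under 0.05, 1 called with a trended and robust variance and 2 with the slide as a block. DAL80 was at 2.57 ± 0.37 later and 1.67 ± 1.22 in the first hour (SD, n = 3 each), a difference of 0.90 ± 0.53 (SE, limma adjusted p = 0.395). Without the nitrogen array at 60 min, 1525 genes (28.1%) were called, and DAL80 with them at 1.53 (limma adjusted p = 0.0179).

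In carbon starvation 3 regulators were called over the course, against 46.3% of all genes. They were GLN3 and GAT1, above, and DAL80, which was at -2.08 ± 0.26 later and -0.63 ± 0.55 in the first hour (SD, n = 3 each). The difference for DAL80 was -1.44 ± 0.53 (SE, limma adjusted p = 0.0397). It lost the call without any of the carbon arrays at 10, 30, 120, 240 or 480 min or the nitrogen array at 240 min (limma adjusted p of 0.0553 to 0.130) with the slide as a block (-1.30, 0.0606) and with normexp background correction and equal totals (-1.14, 0.0688), and it kept its sign in each case. Relative to the median gene of each array, DAL80 in carbon starvation was at 0.40, -0.03 and -0.28 in the first hour and at -1.99, -2.21 and -1.82 later. The step between 60 and 120 min coincides with the boundary between the arrays that stand apart and the others, whose part in it was not tested.

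The change over the course differed between the starvations for GAT1 alone of the 5, by 3.43 ± 0.57 (nitrogen minus carbon, SE, n = 3 per cell, limma adjusted p = 0.00641), against a background of 4.98% called. For DAL80 this value was 2.35 ± 0.75 (SE, limma adjusted p = 0.0828), and it passed the threshold with loess, no further scaling and median centring (2.54, 2.56 and 2.78). GLN3 stood at -1.32 ± 0.45 (SE, limma adjusted p = 0.104). For GZF3 and URE2 it was 0.01 and -0.49.

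Target genes of nitrogen catabolite repression were described by a list of 30 genes. Of these, 28 could be tested. Most encode permeases and catabolic enzymes, but GLN1 (glutamine synthetase), VID30 and ATG14 are also on the list. In nitrogen starvation 17 rose and 1 fell, with a median of 1.42 over the 28 beside 0.18 over all genes. That is 60.7% higher and 3.57% lower, beside 22.1% and 19.4% of all genes. In carbon starvation 2 rose and 14 fell, with a median of -0.78 beside -0.37. The share called in carbon starvation, 57.1%, was close to that of all genes (56.6%), of which 16.4% were higher and 40.2% lower. For nitrogen minus carbon 16 were higher and 0 lower, with a median of 2.31 beside 0.39 over all genes and 57.1% called higher beside 10.0%. At 120 to 480 min 20 were higher and 1 lower, with a median of 3.13 beside 0.26 and 71.4% called higher beside 12.9%. The number of targets called higher over all times fell to 5 with median centring and to 1 with loess after normexp. The count over all genes fell as well, from 560 of 5578 under equal totals to 41 and 10 of 5578. For the targets it was 9 without the nitrogen array at 120 min and 10 without that at 60 or at 240 min. Over all genes it was 225 of 5563, 250 of 5561 and 242 of 5558, in that order. At 120 to 480 min 13 targets were called higher without the nitrogen array at 120 or 240 min. The same number was called without the carbon array at 240 min. Over all genes the count fell too, from 709 of 5505 to 379 of 5494, 383 of 5472 and 430 of 5493.

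**Figure D3:**
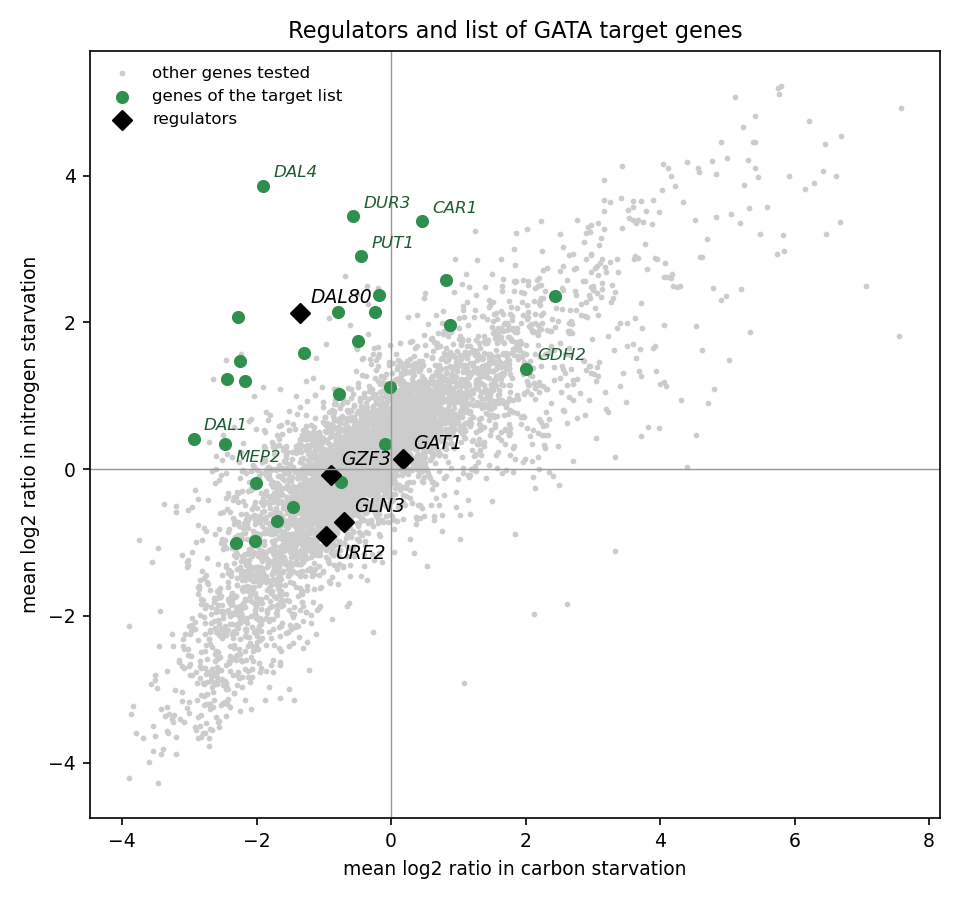
Mean log2 ratio (starved over pre-starvation) in nitrogen starvation (y axis) against carbon starvation (x axis), 6 arrays each, for the 5 regulators (black diamonds), the 28 tested genes of the target list (green circles) and all other genes tested (grey points). DAL80, at 2.12 in nitrogen and -1.35 in carbon starvation, lies with the green points at the upper left, off the diagonal along which most genes fall; URE2 lies on that diagonal.

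The targets named here are those with the largest called changes. DAL4, the allantoin permease, was at 3.61, 0.62, 5.02, 5.37, 4.81 and 3.74 in nitrogen starvation and at -0.11, -1.02, -0.57, -3.39, -2.69 and -3.62 in carbon starvation. It was low at 30 min of nitrogen starvation, as DAL80 was, and its starvations did not overlap. DUR3, the urea permease, rose by 3.45 (limma adjusted p = 0.000444), CAR1, arginase, by 3.38 (0.00273) and PUT1, proline oxidase, by 2.90 (0.00209) in nitrogen starvation. All 3 were highest at 120 min.

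In carbon starvation the largest falls were those of DAL1, allantoinase, at -2.94 (limma adjusted p = 0.000148), and MEP2, an ammonium permease, at -2.47 (0.00101). Both were nearer to their starting level in nitrogen starvation, at 0.42 and 0.35, where neither was called. The DAL1 value was -0.69 with normexp background correction and equal totals (limma adjusted p = 0.158), and its starved signal was above background on 6 of 12 spots in carbon starvation. GDH2, the NAD-dependent glutamate dehydrogenase, was the 1 gene lower in nitrogen at 120 to 480 min, at -1.98 (limma adjusted p = 0.00826). GLN1, glutamine synthetase, was the 1 target that fell in nitrogen starvation, at -0.98 (0.0168).

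The named genes whose course was most like that of DAL80 over the 12 arrays, among 2171 genes detected in both channels on every array, were DAL4 (Pearson r = 0.984), DAL3 (0.972) and YMR226C (0.970). Over the 8 arrays without those that stand apart r was 0.992, 0.972 and 0.975. DAL3 encodes ureidoglycolate lyase. The points of such a correlation share arrays and the pre-starvation reference, and the measure ignores level: DAL3 ran between -0.69 and 0.40 in nitrogen starvation and between -2.46 and -1.55 in carbon starvation, so its ratios were below those of DAL80 in nitrogen starvation.

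**Figure D4:**
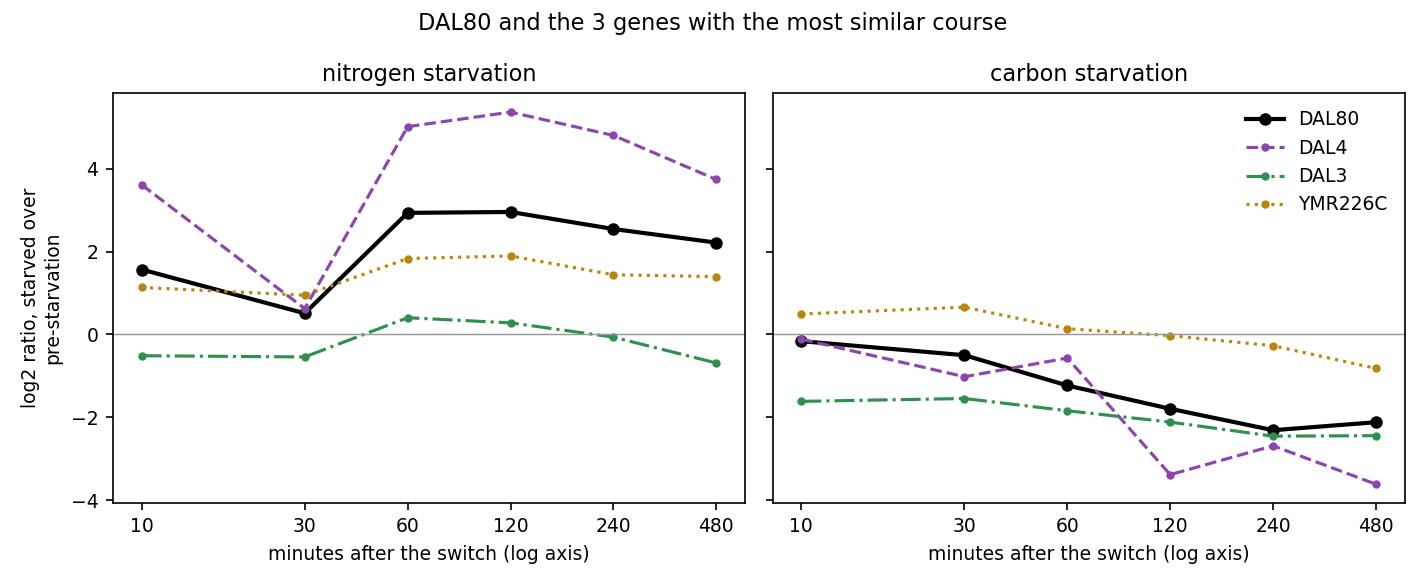
Log2 ratio (starved over pre-starvation, y axis) of DAL80 (black) and of the 3 genes with the highest Pearson r with it over 12 arrays, against minutes after the switch (log axis), in nitrogen starvation (left) and carbon starvation (right). DAL80 and DAL4 were both lowest at 30 min in nitrogen starvation, at 0.51 and 0.62, and DAL3 was lowest there at 480 min, at -0.69.

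Of the other regulators, GAT1 was nearest to MCD4, of glycolipid anchor synthesis (r = 0.953 over 12 arrays and 0.856 over 8), YHL049C (0.932) and YFL065C (0.916). GLN3 was nearest to YOR118W (0.923), NOT3 (0.912) and EAF3 (0.911), GZF3 to ELO1 (0.949), DSE4 (0.941) and TAF9 (0.933), and URE2 to GBP2 (0.911), HSP60 (0.895) and YNR036C (0.858). These values include the shift that all genes of an array share. With each array centred on its median, r was 0.737, 0.608 and 0.533 for the GZF3 genes, 0.962, 0.538 and 0.724 for the URE2 genes, 0.885, 0.718 and 0.859 for the GLN3 genes, and 0.968, 0.958 and 0.948 for the GAT1 genes. For the DAL80 genes it was 0.984, 0.954 and 0.902.

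Among the 5 themselves, GLN3 and GAT1 ran opposite to each other over the 12 arrays (r = -0.849, and -0.762 over 8), and GLN3 and URE2 ran together (0.781 and 0.706). Within nitrogen starvation the first pair had an r of -0.227 and within carbon starvation -0.888 (6 arrays each), where GLN3 was not above background in the first hour. The second pair had 0.571 and 0.867. The repressor genes DAL80 and GZF3 had an r of 0.790 over 12 and 0.871 over 8 arrays, but 0.722 within nitrogen and -0.225 within carbon starvation (6 arrays each), so the joint value includes the difference between the starvations. GAT1 and DAL80 had an r of 0.227 over 12 arrays but 0.908 over the 8, so that relation rests on which arrays are used. Within nitrogen starvation it was 0.234 and within carbon starvation 0.786 (6 arrays each). The value over the 8 arrays also includes the difference between the starvations.

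Further genes of the same wiring were taken from lists. Of 6 other GATA zinc finger genes, 2 could be tested. GAT2 rose in both starvations, by 2.56 in nitrogen (limma adjusted p = 0.000168) and by 1.86 in carbon (0.000487), and ASH1, a repressor of mating type switching, rose by 0.89 (0.00737) in nitrogen. GAT3, GAT4, SRD1 and ECM23 had too few values above background.

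Of 19 genes for kinases, phosphatases and transport factors that act on the GATA activators, 4 rose and 2 fell in nitrogen starvation, and 0 rose and 3 fell in carbon starvation. The shares called, 31.6% in nitrogen and 15.8% in carbon starvation, were below the 41.5% and 56.6% of all genes. The median was 0.46 in nitrogen starvation and -0.16 in carbon starvation, beside 0.18 and -0.37 over all genes. SIT4, a phosphatase acting on Gln3, fell in both, at -1.39 in nitrogen (limma adjusted p = 0.00684) and -1.75 in carbon starvation (0.000923). Its starved signal was above background on 5 of 6 nitrogen and 3 of 6 carbon spots, and the carbon value was -0.12 with normexp background correction and equal totals.

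In nitrogen starvation NPR2, of the complex that restrains Tor complex 1, rose by 1.29 (limma adjusted p = 0.00777), TIP41 by 1.02 (0.0440) and TAP42, the phosphatase partner bound by Tip41, by 0.87 (0.0178). The TIP41 call was lost without any 1 nitrogen array, and the TAP42 call without the nitrogen array at 60, 120 or 240 min (limma adjusted p of 0.0525 to 0.0609). CRM1, the nuclear exporter, fell in carbon starvation, at -1.24 (limma adjusted p = 0.00186), but was 0.18 with normexp background correction and equal totals and not called without the 4 arrays (-0.66, 0.0607). For nitrogen minus carbon 0 of the 19 were called under equal totals, beside the 10.5% of all genes.

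Of 9 pathway-specific activators that work beside the GATA factors, 3 rose and 1 fell in nitrogen starvation, and 0 rose and 2 fell in carbon starvation. These are 44.4% and 22.2% called, near and below the 41.5% and 56.6% of all genes. DAL82 and DAL81, activators of the allantoin genes, rose by 1.42 (limma adjusted p = 0.00243) and 0.95 (0.00527) in nitrogen starvation. ARG81 and ARG80, of the regulator of arginine metabolism, went in opposite directions there, at 1.24 (0.0037) and -2.25 (2.43e-05). ARG80 also fell in carbon starvation, at -1.12 (limma adjusted p = 0.000432), as did UGA3, the activator of GABA genes, at -0.99 (0.00977), but with normexp background correction and equal totals these were 0.57 and 0.32. For nitrogen minus carbon ARG81 was higher by 1.48 (limma adjusted p = 0.0307) and ARG80 was lower, at -1.13 (0.0243). These 2 differences were not tried under the alternatives. Over all genes the calls in this comparison went from 588 to 170 with no further scaling and 77 with median centring, but to 1354 with normexp and equal totals. The starved signal of ARG80 was well above background on 5 of 6 nitrogen and 3 of 6 carbon spots.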

How the data were processed

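RNA of FY4 yeast was hybridised to 12 two-colour Agilent arrays (10263 non-control spots), 6 per starvation. The authors deposited files of Agilent's Feature Extraction software with a red and a green intensity per spot. Per the file headers, these were corrected for background by a spatial method, and the dyes were balanced by LOWESS. The deposited log10 ratio derives from these signals, and the deposited series table holds it as log2 within 5e-04. The authors' methods scaled scans to equal red and green totals.

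Here each array's processed signals were scaled to equal totals. Control and outlier spots were dropped, as were spots dim in both channels, and spots of 1 gene were averaged. The test of each starvation's mean took genes with 4 or more values per starvation (5578), and that of first hour and later times took genes with 2 or more per cell (5505). Both used limma (version 3.58.1, under R 4.3.3), with Benjamini-Hochberg adjustment over all genes and 1 fit over all 12 arrays. The fitting code was also checked on simulated data with known answers. For gene names the array's own were kept, and 5756 of 6256 matched a locus tag of the RefSeq R64 gene table. No sequence or genome coordinate was used here. Figures were made in matplotlib 3.10.9 (Python 3.11.15).

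The regulators and gene lists were chosen with earlier results of these data known. Named beside the regulators are, per list, up to 4 genes with the largest called change in nitrogen starvation and up to 2 in carbon starvation, and per regulator the 3 genes with the highest Pearson r. GDH2 at 120 to 480 min, GLN1, and values of ARG81, ARG80, DAL1 and MEP2 in other comparisons were added after their values were seen. Alternatives tried were background correction by normexp (offset 50) with equal totals or loess, no further scaling, centring on the median, ratios of the series table, 2 other filters on dim spots, each array left out, the 8 arrays alone, a robust variance with a trend, and a block for the slide (random) or for the time point. The number of arrays limits the precision.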

Additional observations from a re-analysis of the deposited data

Results flagged for a closer look

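Among the regulators, 4 values differed between the starvations by a test of the difference itself (limma, Benjamini-Hochberg adjustment over all genes). DAL80 differed by 3.48 (log2, nitrogen minus carbon) over all 6 time points, with 6 of 6 values above 0 in nitrogen starvation and 0 of 6 in carbon starvation. At 120 to 480 min it differed by 4.65. GAT1 differed by 1.68 at 120 to 480 min, a call lost with loess, no further scaling and median centring. There its 3 nitrogen values were above 0 and its 3 carbon values below. Its change over the course (120 to 480 min minus 10 to 60 min) differed by 3.43, a value that uses all 4 arrays that stand apart. Within each starvation, no array of any regulator lay apart from the other 5 by Dixon's gap test, which by chance marks about 1 in 20 groups. That test looks for 1 extreme value, so it could not mark the 3 carbon arrays of the first hour, which can mask one another.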

How the results depend on the processing

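The number of regulators called was 3 in nitrogen starvation, and 2 to 3 under 22 alternatives. In carbon starvation 4 were called, but 2 with normexp background correction, with equal totals (3677 of 5578 genes called) or loess (2785). Under the strictest filter on dim spots 2 were called, DAL80 and URE2 with unchanged means (1354 of 2189 genes called). GLN3 and GZF3 were not tested under that filter in any comparison. For nitrogen minus carbon 1 was called, beside 588 of 5578 genes. It was 2 with normexp and equal totals (1354 genes), a trended robust variance (720), the time point as a block (896), or the 8 arrays alone (1498 of 5714). With an array left out it was 1 to 2. GZF3 joined DAL80 without the nitrogen array at 10 min (683 of 5570) or the carbon array at 120 min (588 of 5506). For later minus first hour in nitrogen starvation it was 0 to 1 with an array left out. For the difference of that change between starvations, 1 was called, but 4 with normexp and equal totals and 2 with normexp and loess, no further scaling, median centring or the series table, and 1 to 2 with an array left out. At 120 to 480 min 2 were called, beside 893 of 5505 genes, and 1 to 2 with an array left out (1 without the carbon array at 480 min, beside 551 of 5462). The 2 were DAL80 and GAT1 under equal totals. With normexp and loess, no further scaling, median centring or the series table, GAT1 lost its call (limma adjusted p of 0.0535 to 0.079). There GLN3, lower in nitrogen, was called in its place (limma adjusted p of 0.0092 to 0.0318).

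For the regulators, 52 of 761 values under alternatives turned sign. In 43 of these the value was called neither before nor after, at 0.58 or less in size, among them URE2 for nitrogen minus carbon under every other scaling, GAT1 in nitrogen starvation with median centring and GAT1 in carbon starvation without the array at 10, 30 or 60 min. The other 9, and 3 list genes, follow. With normexp and equal totals, GLN3 in carbon starvation was 0.72, its later minus first hour value -0.91 and the difference of that change 1.18, GZF3 in carbon starvation 0.28 and its later minus first hour value -1.06 (-0.34 with loess), and in carbon starvation CRM1 0.18, ARG80 0.57 and UGA3 0.32. With the 8 arrays, GLN3 in carbon starvation was 0.029, GAT1 in carbon starvation -1.36, and GAT1 in nitrogen minus carbon 1.42, at unmatched times. The causes were not tested. DAL80 kept its sign and its call in nitrogen starvation (22 alternatives), for nitrogen minus carbon and at 120 to 480 min (23 each), ranging from 2.69 to 4.31 and from 3.96 to 4.83 in the last 2. In carbon starvation it lost the call with normexp and loess (-0.80, limma adjusted p = 0.0668).

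The starvations share their 6 time points but no replicate numbers. With the time point as a block, 2 regulators were called for nitrogen minus carbon, DAL80 and GZF3 (limma adjusted p = 0.0471). Later minus first hour in carbon starvation and the difference of that change could not be fitted with the 8 arrays.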

Other observations

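In raw signal, before background subtraction, the red channel of DAL80 ran between 792 and 9337 units in nitrogen starvation, against 46.1 to 390 units in carbon starvation, with a local background of 26 to 28 units. In the first hour of carbon starvation the red signal of GLN3 was 30.4, 34.8 and 31.2 units over a background of 25.5 to 26 units. Duplicate spots of GLN3 at 30 min of carbon starvation differed by 0.78 and those of URE2 at 60 min by 0.69 (log2), where duplicates over all genes of those arrays gave an SD per spot of 0.20 and 0.28.

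VID30, a member of the target list whose product belongs to a ubiquitin ligase complex for gluconeogenic enzymes, rose in nitrogen starvation by 2.35 and in carbon starvation by 2.43, with 6 of 6 values above 0 in each. It was thus among the 2 list genes that rose in carbon starvation, the other being GDH2 (2.01, limma adjusted p = 0.0205).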
